A study of Mus musculus with 14 samples.

Results

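Genes that govern the step from G1 into S phase were examined in mouse intestinal organoids, 8 in all: the CDK inhibitors Cdkn1a (p21), Cdkn1b (p27) and Cdkn2c (p18), the D cyclins Ccnd1, Ccnd2 and Ccnd3, and the E cyclins Ccne1 and Ccne2. They were chosen by name, with earlier results of these data known, and all 8 were found among the 27399 genes of the bulk count files and among the 17496 to 20063 genes of each single-cell matrix. The series set Isx-9 (isoxazole-9), a synthetic small molecule known for driving neural progenitors towards neurons, against its solvent DMSO, and its title concerns enteroendocrine cells, which release gut hormones. For bulk RNA-seq, Lgr5-EGFP knock-in organoids were the source of the sorted stem cells, taken after 6 hours of 25 µM Isx-9 (2 libraries) or of 0.05% DMSO (2 libraries). Single-cell RNA-seq covered whole organoids with a Chgb-mCherry knock-in after 6 days of 25 µM Isx-9, organoids with that reporter after 6 days of 0.05% DMSO, untreated reporter organoids and untreated wild-type organoids, with 1 library each. Treatment began on day 2 after passaging, and every culture grew in medium with EGF, Noggin and R-spondin1, which supplies mitogen and Wnt signals to all groups, DMSO included. The labels do not say whether the 2 bulk libraries of a group came from separate cultures, so bulk p-values measure the spread between these libraries, which may be technical. The 6 ATAC-seq samples of sorted stem cells were not analysed here.

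D cyclins are induced by growth factor and Wnt signals and activate CDK4 and CDK6, which phosphorylate the retinoblastoma protein and so release E2F transcription factors. E2F activity induces the E cyclins, which activate CDK2 and open S phase. Cdkn2c, an INK4 protein, binds CDK4 and CDK6, while Cdkn1a, a classical p53 target, and Cdkn1b, which is restrained by growth factor signalling and by SKP2-dependent degradation, bind cyclin-CDK complexes and hold CDK2. In the crypt, cycling progenitors leave the cycle as they differentiate. Enteroendocrine cells pass through a short state that expresses the transcription factor Neurog3 and then fill with granule proteins such as chromogranin B (Chgb).

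In RefSeq's GRCm38.p6 annotation the 3 inhibitors lie at chr17:29090979-29100722 (Cdkn1a), chr6:134920401-134925525 (Cdkn1b) and chr4:109660876-109666756 (Cdkn2c). The D cyclins lie at chr7:144929931-144939831 (Ccnd1), chr6:127125162-127152188 (Ccnd2) and chr17:47505051-47599689 (Ccnd3), and the E cyclins at chr7:38097984-38107490 (Ccne1) and chr4:11190433-11204779 (Ccne2). The 250 bases before the start are printed for Cdkn1a and Cdkn1b, which differed in opposite directions between endocrine stages, and for Ccne1, which differed most between Neurog3 and Mki67 cells, 5′ to 3′ on the gene's own strand. For Cdkn1a, which has 2 annotated starts in the table, capitals mark the E-box CANNTG, the motif bound by basic helix-loop-helix factors, the family of Neurog3. The first window is chr17:29090729-29090978 (plus strand) and holds no E-box, and the second is chr17:29093519-29093768 (plus strand) and holds 1. For Cdkn1b (chr6:134920151-134920400, plus strand) capitals mark 2 CCAAT boxes, and for Ccne1 (chr7:38107491-38107740, minus strand) 4 GC boxes (GGGCGG or its reverse complement).
Cdkn1a first start: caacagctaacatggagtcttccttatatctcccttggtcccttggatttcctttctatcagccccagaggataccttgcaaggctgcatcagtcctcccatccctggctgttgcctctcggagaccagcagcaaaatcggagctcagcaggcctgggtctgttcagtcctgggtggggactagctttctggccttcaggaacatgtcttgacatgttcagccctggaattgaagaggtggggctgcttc
Cdkn1a second start: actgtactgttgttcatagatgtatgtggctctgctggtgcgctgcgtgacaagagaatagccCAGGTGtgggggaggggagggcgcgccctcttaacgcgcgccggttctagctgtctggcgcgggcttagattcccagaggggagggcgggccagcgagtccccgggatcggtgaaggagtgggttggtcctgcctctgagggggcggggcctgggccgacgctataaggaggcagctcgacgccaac
Cdkn1b: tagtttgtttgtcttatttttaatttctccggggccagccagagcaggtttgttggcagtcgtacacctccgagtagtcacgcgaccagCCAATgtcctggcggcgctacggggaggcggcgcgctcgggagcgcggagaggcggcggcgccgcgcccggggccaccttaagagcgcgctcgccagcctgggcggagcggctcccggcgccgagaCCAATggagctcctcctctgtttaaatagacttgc
Ccne1: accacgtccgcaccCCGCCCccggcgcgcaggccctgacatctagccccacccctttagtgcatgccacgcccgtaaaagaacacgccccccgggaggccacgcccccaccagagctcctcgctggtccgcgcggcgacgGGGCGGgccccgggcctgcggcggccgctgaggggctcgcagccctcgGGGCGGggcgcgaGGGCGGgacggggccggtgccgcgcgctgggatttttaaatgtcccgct
Both strands were searched. Of 32851 RefSeq windows of this length, 66.2% held CANNTG, 33.8% CCAAT and 32.7% GGGCGG, so each motif is common, and a match is a description of the letters and not a site of binding. The Cdkn1b window also held 1 GC box and the second Cdkn1a window 2, and neither Cdkn1b nor Ccne1 held an E-box there. The table matched 5 of the 8 members, and Ccnd1, Ccnd2 and Ccne2 were not matched; the windows of Cdkn2c and Ccnd3 are not printed.

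The bulk libraries held 19025875 and 19431905 counts for Isx-9 and 19487264 and 18909542 for DMSO. After filters on genes, UMIs and mitochondrial share, 9185 cells were kept for Isx-9, 8969 for DMSO, 9610 for untreated reporter and 8744 for wild type, with medians of 8888, 13388, 12633 and 15007 UMIs (counted molecules) per cell. Between 13 and 35 kept barcodes were shared by any 2 libraries. The doublet caller marked 8.30% of Isx-9 cells but 0, 0 and 1 cells of the DMSO, untreated reporter and wild-type libraries, so it did not work in those 3. Single-cell levels are given as CPM, the gene's UMIs per 1000000 UMIs of all cells of the population in that library. The single-cell Isx-9 library stood apart from the other 3 in its makeup: enterocyte markers summed to 145 CPM against 1946, 1653 and 1232, and it held no cell past the gate for goblet cells (Muc2) or enterocytes (Fabp1). Each single-cell condition is 1 library, so its values carry counting intervals and no test between conditions.

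Cells were classed by genes outside the 8: at least 2 Neurog3 UMIs, at least 20 Chgb UMIs per 10000 (Chgb-high), at least 2 UMIs of the proliferation gene Mki67, or none of these. Neurog3 cells made up 23.4% of the Isx-9 library (2149 cells; exact 95% interval 22.5 to 24.3%), against 2.62% of DMSO cells (235; 2.30 to 2.97%), 2.57% of untreated reporter and 2.90% of wild-type cells. Chgb-high cells were 44.3% of the Isx-9 library against 3.95%, 4.10% and 4.38%. Mki67 cells were 10.8% with Isx-9 against 33.1%, 35.3% and 34.2%. Classes may overlap: 60.7% of Neurog3 cells were also Chgb-high with Isx-9, against 25.5% with DMSO, and 1.95% were also Mki67 cells against 12.3%. Called doublets had been removed from the Isx-9 library (831 cells) but not from the DMSO library (0 called), and their part in these overlaps was not tested. In Chgb-high cells 10 enteroendocrine markers summed to 29913 CPM with Isx-9 and 26413 with DMSO, against 311 and 108 in cells of none of the 3 classes. The 10 include Chgb, the gene of the gate, at 23987 and 18336 CPM in Chgb-high cells. The gate thus sets much of these sums, which are no separate check of the class. Chgb itself stood at 146 CPM with Isx-9 against 22.8 with DMSO in the cells of none; the part of free RNA in these values was not tested.

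**Figure D1:**
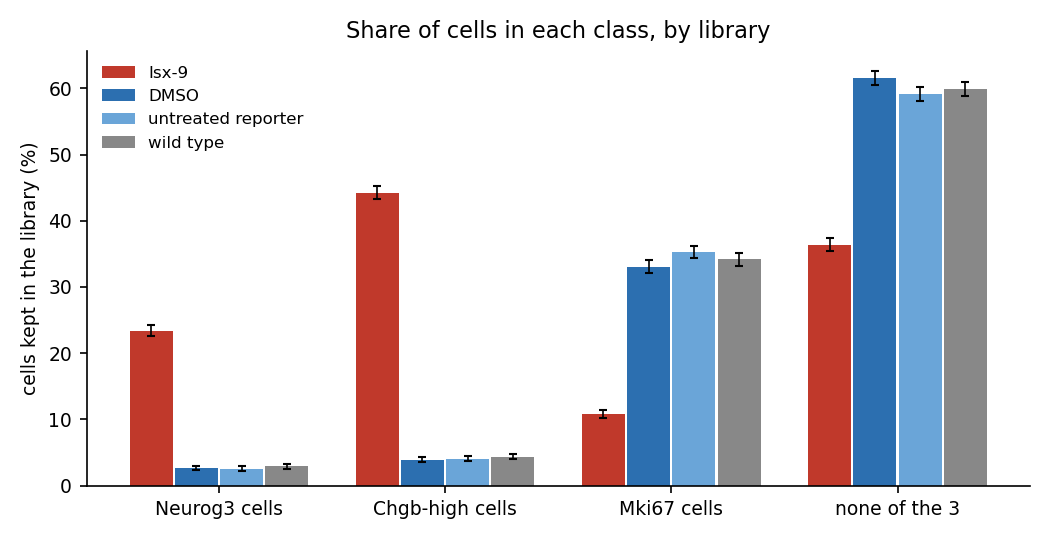
Share of kept cells in each class, in percent, for the Isx-9, DMSO, untreated reporter and wild-type libraries (bars, with exact 95% binomial intervals for counting error). Isx-9 stands at 23.4% Neurog3 and 44.3% Chgb-high cells, and at 10.8% Mki67 cells against 33.1 to 35.3% in the other 3 libraries.

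Across populations of the 3 libraries without Isx-9, each inhibitor had its own place. Cdkn1a was highest in Neurog3 cells that were not Chgb-high, at 709 CPM in DMSO, 771 in untreated reporter and 663 in wild type, with no overlap with any other population. Next came Chgb-high cells without a Neurog3 UMI (325 to 458) and Fabp1-gated cells (398 to 409), whose ranges overlap. Muc2-gated, Dclk1-gated (tuft) and Lyz1-gated (Paneth) cells followed, and Lgr5-gated cells (66.5 to 91.1) and Mki67 cells (60.1 to 80.6) stood at the low end, overlapping each other. Cells with both Neurog3 and high Chgb spread from 65.8 to 218 CPM over 57 to 61 cells per library.

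Cdkn1b was highest in the 2 Chgb-high populations, at 167 to 202 CPM without Neurog3 and 159 to 215 with it, and these overlap. Dclk1-gated cells (79.0 to 91.5) and then Neurog3 cells without high Chgb (49.6 to 57.3) followed, and these Neurog3 cells overlap Mki67 cells (45.8 to 52.4). Fabp1-gated cells were lowest, at 14.1 to 24.5. Cdkn2c was highest in Mki67 cells, at 18.8 to 21.6 CPM, above Dclk1-gated cells (12.6 to 12.97), and stood between 7.01 and 12.3 in the 3 endocrine populations and Lgr5-gated cells.

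Among the cyclins, Ccnd1 and Ccnd2 had their highest medians in Lgr5-gated cells, at 121 to 165 and 402 to 429 CPM. The Ccnd1 range of Mki67 cells (96.3 to 128) overlapped both that of Lgr5-gated and that of Muc2-gated cells (66.2 to 120.3), and Fabp1-gated cells had the least (5.51 to 16.1). Ccnd3 was highest outside the cycling cells, at 56.0 to 64.5 in Chgb-high cells without Neurog3. Dclk1-gated cells (43.9 to 60.1) overlap that range, and Mki67 cells held 29.7 to 32.1. Ccne1 stood at 14.6 to 16.7 in Mki67 cells and 12.4 to 13.5 in Lgr5-gated cells, and the endocrine populations held 2.63 to 7.31. Ccne2 overlapped between Mki67 cells (6.91 to 8.39) and Lgr5-gated cells (7.01 to 7.69). UMIs are counted at the transcript end, so these levels are not scaled by length and are not compared between genes.

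**Figure D2:**
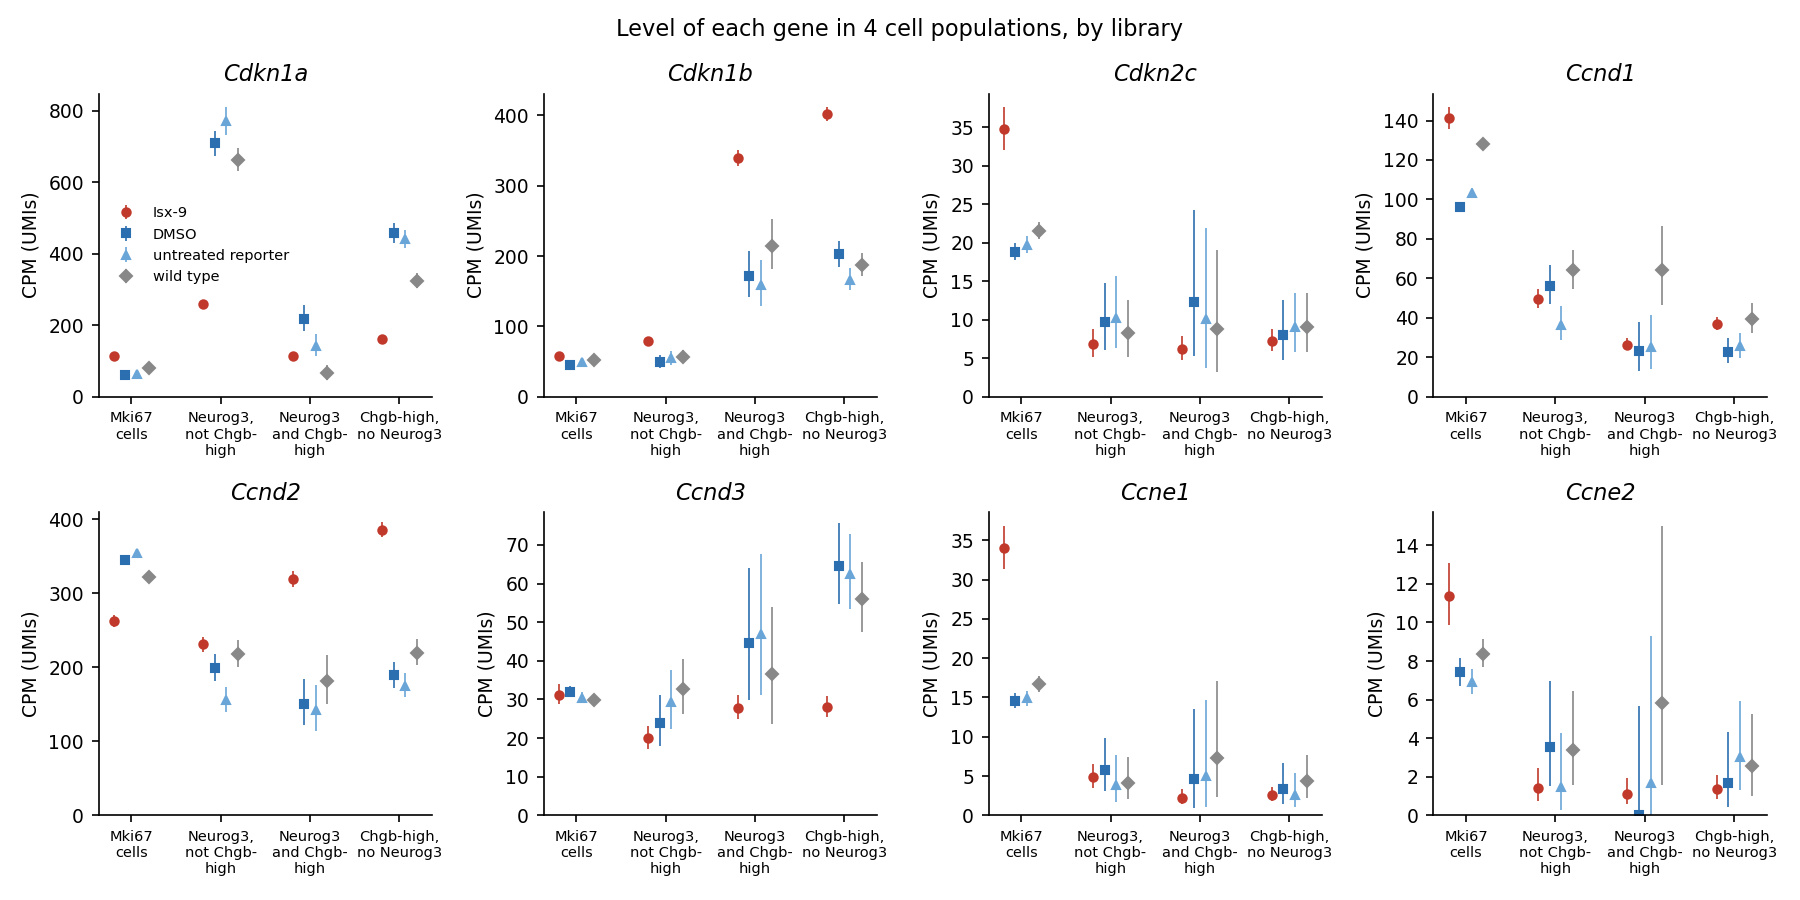
CPM (UMIs per 1000000) of each of the 8 genes (linear axes from 0) in Mki67 cells and 3 successive endocrine populations, with 1 point per library and exact 95% Poisson intervals. In the libraries without Isx-9, Cdkn1a peaks in Neurog3 cells without high Chgb (663 to 771) and Cdkn1b in Chgb-high cells, while Ccne1 is highest in Mki67 cells.

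Neurog3 cells were compared with Mki67 cells over all 4 libraries, each library giving 1 summed value to each side, to ask how the 8 genes differ between endocrine progenitors and cycling cells. Neurog3 cells had more Cdkn1a and Cdkn1b and less Cdkn2c, Ccnd1, Ccnd2, Ccne1 and Ccne2. That is 7 of 8 members past an adjusted p of 0.05 by edgeR's quasi-likelihood test, 2 higher and 5 lower, where 61.4% of all 12983 tested genes passed (30.3% higher, 31.1% lower; 39.9% and 23.2% with library sizes in place of TMM scaling, which moves the median gene from a log2 fold change of 0.01 to 0.24). Cells in both classes were left out of the test and are in the levels given here. Mki67 is itself a proliferation gene, so the gate ties the Mki67 class to other genes of the cycle. The part of the gate in these differences was not tested.

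Cdkn1a stood at 179 CPM in Neurog3 cells of the Isx-9 library, 599 in DMSO, 629 in untreated reporter and 541 in wild type, against 116, 60.1, 63.6 and 80.6 in Mki67 cells. The groups do not overlap, but the Isx-9 pair is much closer than the other 3. The log2 fold change was 2.64 ± 0.55 (SE, 4 libraries; adjusted p = 0.00624) and 3.27 without the Isx-9 library. Cdkn1b stood at 224, 77.0, 78.3 and 89.6 in Neurog3 cells against 58.3, 45.8, 49.4 and 52.4 in Mki67 cells, higher in each library (log2 fold change 0.995 ± 0.20; adjusted p = 0.00484). These Neurog3 cells include those that were also Chgb-high. Without them Cdkn1b stood at 79.0, 49.6, 54.7 and 57.3, in a range that overlaps that of Mki67 cells, and this subset was not tested against Mki67 cells.

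Cdkn2c went the other way from the other 2 inhibitors, with 6.46, 10.3, 10.2 and 8.39 CPM in Neurog3 cells against 34.8, 18.8, 19.7 and 21.6 in Mki67 cells. Its log2 fold change was -2.42 ± 0.21 (adjusted p = 0.000157). Ccne1 had the largest difference of the 8, with 3.39, 5.501, 4.16 and 4.80 in Neurog3 cells against 34.0, 14.6, 14.9 and 16.7 in Mki67 cells (log2 fold change -3.83 ± 0.22; adjusted p = 3.75e-05). Ccne2 was lower by a log2 fold change of -3.30 ± 0.48 (adjusted p = 0.00129), and its Neurog3 level rests on 24 UMIs with Isx-9 and 8 with DMSO.

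Ccnd1 stood at 36.7, 48.8, 34.0 and 64.1 CPM in Neurog3 cells against 141, 96.3, 103 and 128 in Mki67 cells, with no overlap (log2 fold change -2.14 ± 0.11; adjusted p = 2.77e-05). Ccnd2 was lower by -1.18 ± 0.26 (adjusted p = 0.00828), but in the Isx-9 library Neurog3 cells (280.2) had slightly more than Mki67 cells (262) in CPM. Ccnd3 did not pass (-0.17 ± 0.14; adjusted p = 0.329), and with library sizes alone its sign turned to 0.06. The 7 calls held in each alternative run for this comparison.

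Around the 8, the same comparison showed 11 of 13 pocket protein and E2F genes lower in Neurog3 cells and none higher, where 31.1% of all tested genes were lower and 30.3% higher, led by E2f8 (-4.22 ± 0.45), E2f7 (-2.38 ± 0.22) and Rbl1 (-2.36 ± 0.25; edgeR adjusted p = 0.000368, 0.000215 and 0.000342). Their median log2 fold change was -1.03 against 0.01 over all tested genes. Cell cycle genes are tied to the Mki67 gate of the other side, so their counts here are no separate check of the classes. Of 8 kinases and partners 5 were lower, with Ccna2, the S-phase cyclin A2, at -5.21 ± 0.35 and Cdk6 and Cdk2 at -1.34 and -1.17. Of 11 genes listed for the turnover of cyclins and inhibitors 5 were lower and 1 was higher. The lower ones were led by Cks2 (-3.50), the SCF cofactor Cks1b (-3.07) and Skp2 (-2.45), the receptor that marks Cdkn1b for degradation. Among 4 tested of 5 other CDK inhibitors, Cdkn1c (p57) was higher at 3.72 ± 0.64 and Cdkn3 and Cdkn2d were lower at -5.14 and -0.52.

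Set against cells of none of the 3 classes, Neurog3 cells differed in 7 of 8 members (2 higher, 5 lower), where 49.1% of 14099 tested genes passed (24.0% higher, 25.1% lower; 35.7% and 15.7% with library sizes alone, where the median gene moves from -0.02 to 0.23). Cdkn1b was higher by a log2 fold change of 1.18 ± 0.20 (adjusted p = 0.00364) and Cdkn1a by 1.13 ± 0.29 (adjusted p = 0.0170). In Neurog3 cells without high Chgb Cdkn1b was nearer to cells of none, at 79.0, 49.6, 54.7 and 57.3 CPM against 46.1, 34.5, 37.1 and 41.9, from Isx-9 to wild type. The Cdkn1a call is lost without the DMSO (0.92, adjusted p = 0.0759), the untreated reporter (0.91, 0.0772) or the wild-type library (1.16, 0.0532), and is 1.49 without the Isx-9 library, where Cdkn1a in Neurog3 cells is nearest to that of other cells (179 against 139.6 CPM). Ccnd1 (-1.72 ± 0.26), Ccnd2 (-1.20 ± 0.11), Ccne1 (-1.55 ± 0.23) and Ccne2 (-1.504 ± 0.32) were lower, with edgeR adjusted p of 0.00247, 0.000385, 0.00240 and 0.00852, the last lost with lower gates (-0.71, adjusted p = 0.128). Ccnd3 passed at -0.37 ± 0.11 (adjusted p = 0.0265) but not without the DMSO (0.0943) or untreated reporter library (0.0626) or with library sizes alone (0.309). Cdkn2c did not differ detectably (-0.00411 ± 0.20, adjusted p = 0.990). Of the neighbours, 7 of 13 pocket protein and E2F genes were lower and none higher.

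Chgb-high cells, the later endocrine class, differed from cells of none in 5 of 8 members, 1 higher and 4 lower, where 57.9% of 14677 tested genes passed (29.0% higher, 28.9% lower; 49.02% and 15.0% with library sizes alone, where the median gene moves from -0.01 to 0.45). Cdkn1b was the member that was higher, at 378, 196, 167 and 193 CPM in Chgb-high cells against 46.1, 34.5, 37.1 and 41.9 in cells of none, from Isx-9 to wild type. The 2 groups are far apart in every library (log2 fold change 2.02 ± 0.15; adjusted p = 0.000303). Ccnd1 (-2.41 ± 0.18), Ccne1 (-2.08 ± 0.26), Ccne2 (-1.71 ± 0.26) and Ccnd2 (-1.29 ± 0.13) were lower, with adjusted p of 0.000280, 0.00150, 0.00295 and 0.000760. Cdkn1a (0.24 ± 0.25, adjusted p = 0.454) and Ccnd3 (0.10 ± 0.18, adjusted p = 0.676) did not pass, and both did without the Isx-9 library (0.50, adjusted p = 0.0295, and 0.37, adjusted p = 0.00203), as did Ccnd3 with library sizes alone (0.55, adjusted p = 0.0338). Of 8 kinases and partners 7 were lower and none higher, among them Cdk6 (-1.58 ± 0.17), Cdk4 (-1.09 ± 0.08) and Cdk2 (-1.08 ± 0.13), and of 5 other CDK inhibitors 2 were higher, Cdkn1c (2.62 ± 0.44) and the INK4 gene Cdkn2d (1.96 ± 0.15), and 1 was lower.

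Within the endocrine path, Chgb-high cells without a Neurog3 UMI were compared with Neurog3 cells without high Chgb. Cdkn1a was lower and Cdkn1b higher in the later cells, so these 2 inhibitors of the same family differed in opposite directions. Cdkn1a stood at 163, 458, 441 and 325 CPM in the later cells against 259.7, 709, 771 and 663 in the earlier ones (log2 fold change -1.04 ± 0.08; adjusted p = 0.000123), lower in all 4 libraries. Cells with both Neurog3 and high Chgb were not in this test. They held less Cdkn1a than either side in each library, at 114, 218, 142 and 65.8 CPM, so the levels do not fall steadily along the 3 populations. Cdkn1b stood at 402, 202, 167 and 188 in the later cells against 79.0, 49.6, 54.7 and 57.3 (1.68 ± 0.12; adjusted p = 7.65e-05), higher in all 4. Ccnd1 was lower still in the later cells (-0.97 ± 0.15; adjusted p = 0.00193), while Ccnd2 (-0.04 ± 0.12; adjusted p = 0.808) did not differ detectably and changes sign with library sizes alone (0.23).

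In that stage comparison 5 of 7 tested members passed, 2 higher and 3 lower, where 46.3% of 10936 genes passed (23.9% higher, 22.4% lower; 40.5% and 12.1% with library sizes alone, where the median gene moves from 0.03 to 0.31). The calls for Ccnd3 (0.64 ± 0.18; adjusted p = 0.0224) and Ccne1 (-0.86 ± 0.30; adjusted p = 0.0475) are weak: without the DMSO or the untreated reporter library neither passed, Ccnd3 also failed without the wild-type library, where Ccne1 was too low to be tested, and Ccne1 failed without the Isx-9 library, so the count of members stood at 3 without any 1 of the DMSO, untreated reporter and wild-type libraries. Ccne2 was too low to be tested. Of 8 kinases and partners 6 were lower, with Ccna2 at -1.82 ± 0.27 and Cdk4 at -1.77 ± 0.09, and none was higher. Among 4 tested of 5 other inhibitors Cdkn2b (1.54 ± 0.16) and Cdkn2d (0.65 ± 0.11) were higher and 1 was lower.

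Mki67 cells, the cycling class, were set against cells of none. Cdkn2c, Ccne1, Ccne2 and Cdkn1b were higher and Cdkn1a lower, 5 of 8 members, where 52.9% of 14294 tested genes passed (26.0% higher, 26.9% lower). Cdkn2c stood at 34.8, 18.8, 19.7 and 21.6 CPM in Mki67 cells against 7.74, 7.11, 7.78 and 6.35 (log2 fold change 1.67 ± 0.13; adjusted p = 0.000215), with no overlap. Cdkn1a stood at 116, 60.1, 63.6 and 80.6 in Mki67 cells against 139.6, 156, 160.5 and 239 (-1.14 ± 0.20; adjusted p = 0.00437), also with no overlap.

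Ccne1 was higher by 0.85 ± 0.16 (adjusted p = 0.00592) and Ccne2 by 0.65 ± 0.20 (adjusted p = 0.0340), the second lost without the wild-type library (adjusted p = 0.143) or with higher gates (0.39, adjusted p = 0.125). The 3 D cyclins did not pass: Ccnd1 -0.07 ± 0.09, Ccnd2 -0.30 ± 0.14 and Ccnd3 -0.06 ± 0.04 (adjusted p = 0.555, 0.127 and 0.260), the first with a turned sign without the Isx-9 library (0.04). Without that library Ccnd2 (-0.11, adjusted p = 0.00536) and Ccnd3 (-0.09, adjusted p = 0.0372) did pass. Median depth was higher in Mki67 cells (17967 UMIs with Isx-9, 17044 to 21501 in the others) than in cells of none (12531 and 11020 to 13153). Of 13 pocket protein and E2F genes 9 were higher and none lower, with E2f7 at 2.00 ± 0.14 and E2f8 at 1.98 ± 0.23. The gate uses a proliferation gene, and its part in these differences was not tested.

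After 6 hours in sorted stem cells, Isx-9 changed 2 of the 8 genes: Cdkn1a rose and Ccnd2 fell. Across all 17418 tested genes 47.3% passed the same test (27.3% higher, 20% lower; 31.4% and 12.03% with library sizes alone, where the median gene moves from 0.02 to 0.14), so 2 of 8 is below the share of genes at large. Cdkn1a stood at 66.6 and 76.6 TMM-scaled CPM (read counts per 1000000 mapped to genes) in Isx-9 libraries against 50.9 and 48.3 in DMSO libraries, with no overlap. Its mean was 71.6 ± 7.05 CPM with Isx-9 and 49.6 ± 1.88 with DMSO (SD, n = 2 each), a log2 fold change of 0.53 ± 0.10 (SE; edgeR adjusted p = 0.00142). Ccnd2 stood at 371 and 421 CPM against 502 and 536, or 396 ± 35.1 against 519 ± 23.9 (SD, n = 2 each; log2 fold change -0.39 ± 0.08; edgeR adjusted p = 0.00236). The authors' deposited table gives 0.54 ± 0.13 for Cdkn1a (adjusted p = 0.000364) and -0.38 ± 0.08 for Ccnd2 (adjusted p = 3.54e-05).

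The other 6 did not pass. Cdkn1b stood at 92.0 and 86.7 CPM with Isx-9 against 78.2 and 107 with DMSO, which overlap (-0.05 ± 0.13; adjusted p = 0.757). Cdkn2c, at 29.7 and 31.7 CPM against 24.3 and 26.9, did not overlap but missed the threshold (0.26 ± 0.13; adjusted p = 0.113), and with library sizes alone it passed (0.39; adjusted p = 0.0265). Lack of overlap is weak here, since 73.7% of all genes showed it with 2 against 2 libraries.

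Ccnd1 stood at 196 and 203 CPM with Isx-9 against 208 and 205 with DMSO (-0.05 ± 0.07; adjusted p = 0.609). Ccnd3 stood at 48.1 and 49.0 against 56.7 and 46.7 (-0.09 ± 0.11; adjusted p = 0.547). Both turned sign with library sizes alone, to 0.08 and 0.04. Ccne1 stood at 24.2 and 22.8 CPM against 29.3 and 26.7 (-0.25 ± 0.13; adjusted p = 0.135), lower without overlap but short of the threshold. Ccne2 stood at 32.7 and 28.2 against 17.7 and 30.4 (0.34 ± 0.21; adjusted p = 0.208): the 2 DMSO libraries differ more from each other than the groups do, and without the second it passed (0.78; adjusted p = 0.00348).

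**Figure D3:**
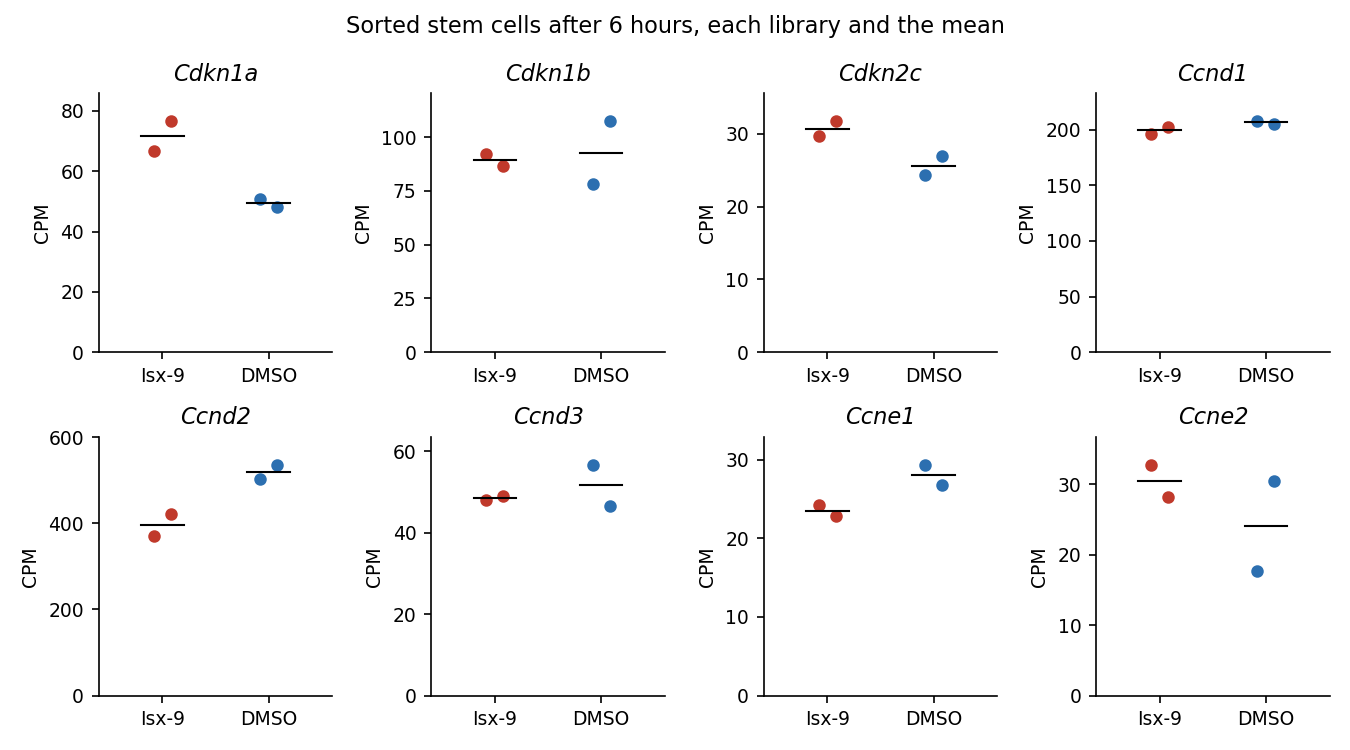
TMM-scaled CPM of each gene in sorted stem cells after 6 hours (linear axes from 0), with 1 point per library and the mean as a line, Isx-9 left of DMSO. Cdkn1a (71.6 against 49.6) and Ccnd2 (396 against 519) passed the test, and for Ccne2 the 2 DMSO libraries lie far apart (17.7 and 30.4).

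Of 8 kinases and partners of the D and E cyclins, 6 fell at 6 hours and none rose, led by Cdc25a, the phosphatase that activates CDK2 (-0.62 ± 0.10), Cdk2 (-0.62 ± 0.09) and Cdk4 (-0.59 ± 0.07), with edgeR adjusted p of 0.000323, 0.000269 and 7.85e-05. Their median log2 fold change was -0.46 against 0.02 over all genes. Of the 4 tested of 5 other inhibitors, Cdkn1c rose by 2.03 ± 0.19 and Cdkn3 by 0.62 ± 0.17 (adjusted p = 9.04e-06 and 0.0109). Among 18 p53 targets, where 27.3% of all genes were higher and 20% lower, 4 rose, with Gdf15 (0.71 ± 0.13) and Phlda3 (0.68 ± 0.23), and 3 fell, led by Sesn2 (-0.99 ± 0.15), so neither count stands above the share of all genes. Pocket protein and E2F genes split, 2 higher (E2f7 0.67 ± 0.11 and Rb1 0.64 ± 0.11) and 4 lower of 13. Of 10 mitogen and Wnt genes 4 rose, among them Egr1 (0.92 ± 0.09), and 2 fell. Stem cell markers summed to 7942 and 6468 CPM with Isx-9 against 9262 and 9236 with DMSO, and 10 proliferation markers to 2840 and 2652 against 2999 and 2873. Mesenchymal markers summed to 20.5 and 12.7 CPM with Isx-9 against 1.69 and 1.27 with DMSO. Fewer cells of a type and less RNA per cell cannot be told apart in bulk, and the part of these markers in the changes was not tested.

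After 6 days, over all cells, 2 of 8 members were past 1.5-fold, where 51.2% of 14812 genes with at least 100 UMIs were (41.6% higher, 9.55% lower): Cdkn1b at 152 CPM with Isx-9 against 43.6 with DMSO (ratio 3.48; 95% counting interval 3.37 to 3.59), and Ccne2 at 4.32 against 6.57 (0.66; 0.58 to 0.74). Cdkn1a lay within the range of the other libraries, at 147 against 128, 130.1 and 173, where 92.0% of genes lay outside it. Chgb-high cells, the class with the most Cdkn1b, made up 44.3% against 3.95% of cells, and their part in the Cdkn1b ratio over all cells was not tested. Within the classes that ratio was 1.27 in Mki67 cells, 1.34 in cells of none, 1.93 in Chgb-high and 2.90 in Neurog3 cells.

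Among Neurog3 cells 3 of 6 members with enough UMIs were past 1.5-fold, 1 higher and 2 lower, where 37.9% of 11307 genes were (30.8% higher, 7.15% lower). Cdkn1a was lower, at 179 CPM with Isx-9 against 599 with DMSO, 629 in untreated reporter and 541 in wild type (ratio to DMSO 0.30; 0.28 to 0.32). That is below the whole range of the other 3 libraries, outside which 77.9% of genes lay in these cells. The share of cells with a Cdkn1a UMI differed less than the summed level. Thinned to 5000 UMIs per cell, it was 39.7% of 2009 cells with Isx-9 against 56.6% of 228 with DMSO (51.0% and 62.6% unthinned). Neurog3 cells with Isx-9 were more often Chgb-high, so the ratio was also taken within stages. It was 0.37 in Neurog3 cells without high Chgb (259.7 against 709) and 0.36 in Chgb-high cells without Neurog3 (163 against 458), both below all other libraries. In cells with both it was 0.52 (114 against 218), but 114 lies inside the range of the 3 libraries without Isx-9, which is wide (65.8 to 218). The split did not make the cells alike. In Neurog3 cells without high Chgb, Neurog3 stood at 2397 CPM with Isx-9 against 920 with DMSO. Chgb stood there at 263 against 63.3 and Mki67 at 42.4 against 96.1, and the part of these differences in the ratio was not tested. In all Chgb-high cells Cdkn1a stood at 145 against 393, 373 and 271 (0.37; 0.35 to 0.39).

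Markers of other cell types were also lower in these Neurog3 cells. Goblet markers summed to 923 CPM with Isx-9 against 4557 with DMSO and Paneth markers to 475 against 1891. Enterocyte markers summed to 190.1 against 934 and stem cell markers to 549 against 1676. By contrast, enteroendocrine markers summed to 16737 against 5856, of which Chgb, a gating gene, gave 13173 and 3904. Fabp1-gated cells, enterocytes by their gate, were themselves high in Cdkn1a (398 to 409 CPM without Isx-9), and the part of these markers in the Cdkn1a ratio was not tested. The doublet caller had removed 831 cells of the Isx-9 library and 0 of the DMSO library. The part of remaining doublets in these sums and in the ratio was not tested either.

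Cdkn1b in Neurog3 cells stood at 224 CPM with Isx-9 against 77.0 with DMSO (ratio 2.90; 2.54 to 3.34). The ratio was smaller within the early stage, at 1.59 in Neurog3 cells without high Chgb (79.0 against 49.6) and 1.46 where cells of more than 1 class were left out. In cells with both it was 1.97 (339 against 172) and in Chgb-high cells without Neurog3 1.99 (402 against 202), each above all 3 other libraries. Cdkn2c was lower in Neurog3 cells, at 6.46 against 10.3 (0.63; 0.42 to 0.97), on 124 and 30 UMIs, and its ratio was 1.08 without the cells of more than 1 class.

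Among Chgb-high cells 4 of 6 members were past 1.5-fold, 2 each way, where 39.5% of 12555 genes were (31.3% higher, 8.20% lower). Cdkn1b (378 against 196, ratio 1.93) and Ccnd2 were higher, and Cdkn1a and Ccnd3 lower. Ccnd2 stood at 363 CPM with Isx-9 against 186 with DMSO, 169 in untreated reporter and 210.2 in wild type (ratio 1.95; 1.80 to 2.12). Ccnd3 stood at 28.3 against 60.1, 59.0 and 51.8 (0.47; 0.40 to 0.55). The 2 D cyclins lay on opposite sides of all 3 other libraries in the same cells, where 77.7% of genes lay outside that range. In Chgb-high cells enterocyte markers summed to 255 CPM with Isx-9 against 1507 with DMSO, goblet markers to 816 against 1648, Paneth markers to 608 against 1107, stem cell markers to 406 against 1168 and proliferation markers to 65.9 against 261; their part in the ratios was not tested. Ccnd1 (33.7 against 26.0) was within the range of the others, at a ratio of 1.30 that became 3.99 with the 8% of cells with the highest doublet scores left out of each library.

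Along the stages the Ccnd2 ratio was 1.16 in Neurog3 cells without high Chgb (231 against 199), 2.12 in cells with both (319 against 151) and 2.04 in Chgb-high cells without Neurog3 (385 against 189). Over all Neurog3 cells it was 1.49, just short of 1.5-fold, and it passed under 6 of the alternatives, up to 2.19. Thinned to 5000 UMIs per cell, 78.0% of Chgb-high cells with Isx-9 held a Ccnd2 UMI against 41.2% with DMSO, and 78.1% against 60.2% a Cdkn1b UMI (83.7% and 50.8%, and 83.4% and 69.5%, unthinned). Of the deep-enough cells 3467 and 289 entered, with 598 and 65 left out, and median depths were 7059 and 7725 UMIs. The lowest share of cells with a Cdkn1b UMI among the classes, in cells of none, was 20.6% and 15.7% thinned.

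Mki67 cells, fewer with Isx-9, carried more of both the E cyclins and the inhibitors Cdkn1a and Cdkn2c. Of 8 members 4 were past 1.5-fold, each of them higher, where 31.4% of 11795 genes were (23.4% higher, 8% lower). Cdkn1a stood at 116 CPM with Isx-9 against 60.1 with DMSO, 63.6 in untreated reporter and 80.6 in wild type (ratio 1.93; 1.82 to 2.03), the opposite side from Neurog3 cells. Cdkn2c stood at 34.8 against 18.8, 19.7 and 21.6 (1.85; 1.67 to 2.04), Ccne1 at 34.0 against 14.6, 14.9 and 16.7 (2.33; 2.09 to 2.59), and Ccne2 at 11.4 against 7.41, 6.91 and 8.39 (1.54; 1.29 to 1.82). The Ccne2 ratio was under 1.5 with called doublets kept (1.39), without the cell filter (1.37), with lower gates (1.28) and with the 50 most abundant genes left out of the total (1.497). All 4 lie above the other 3 libraries, although 86.6% of genes in these cells lay outside that range. Ccnd1 was just short at 1.47 (141 against 96.3) and Ccnd2 was lower at 0.76 (262 against 344), also below all other libraries. In these cells 10 proliferation markers summed to 1967 CPM with Isx-9 against 1746 with DMSO, and enteroendocrine markers to 426 against 128. The first list includes the gating gene Mki67 (370 against 340 CPM) and the second Chgb (291 against 82.9). Larger differences ran the other way: goblet markers summed to 172 against 1267, Paneth markers to 144 against 1410.2, enterocyte markers to 98.5 against 554 and stem cell markers to 1787 against 3385. The part of these markers in the ratios was not tested.

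In cells of none of the 3 classes 2 of 8 members were past 1.5-fold, where 38.7% of 13040 genes were (27.9% higher, 10.8% lower). Ccnd1 stood at 187 CPM with Isx-9 against 96.8, 102 and 122 (ratio 1.93; 1.87 to 1.997), and Ccne2 at 4.03 against 6.21, 5.89 and 4.998 (0.65; 0.54 to 0.78), both outside the range of the other libraries, as 87.2% of genes were. These cells differ in type between the libraries, since goblet markers summed to 390.3 against 6375 CPM and Paneth markers to 375 against 8470. Lgr5-gated cells, 27.7% of the Isx-9 and 25.4% of the DMSO library, differed in the same way, with goblet markers at 263 against 3431 CPM, Paneth markers at 209 against 3898 and stem cell markers at 2167 against 4349. The part of these differences in the ratios was not tested. There Ccnd1 stood at 179 against 121 (1.48; 1.42 to 1.54), Cdkn1a at 105 against 66.5 (1.57; 1.49 to 1.66) and Ccne2 at 3.90 against 7.69 (0.51; 0.41 to 0.63), while Ccnd2 (457 against 402) and Cdkn1b (44.2 against 34.8) were within 1.5-fold. In 49 Dclk1-gated cells with Isx-9 against 232 with DMSO, Ccnd1 was 298 against 24.2 CPM (12.3; 8.70 to 17.8) and Ccnd2 707 against 114 (6.22; 5.21 to 7.44), where tuft markers summed to 2141 against 4092.

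**Figure D4:**
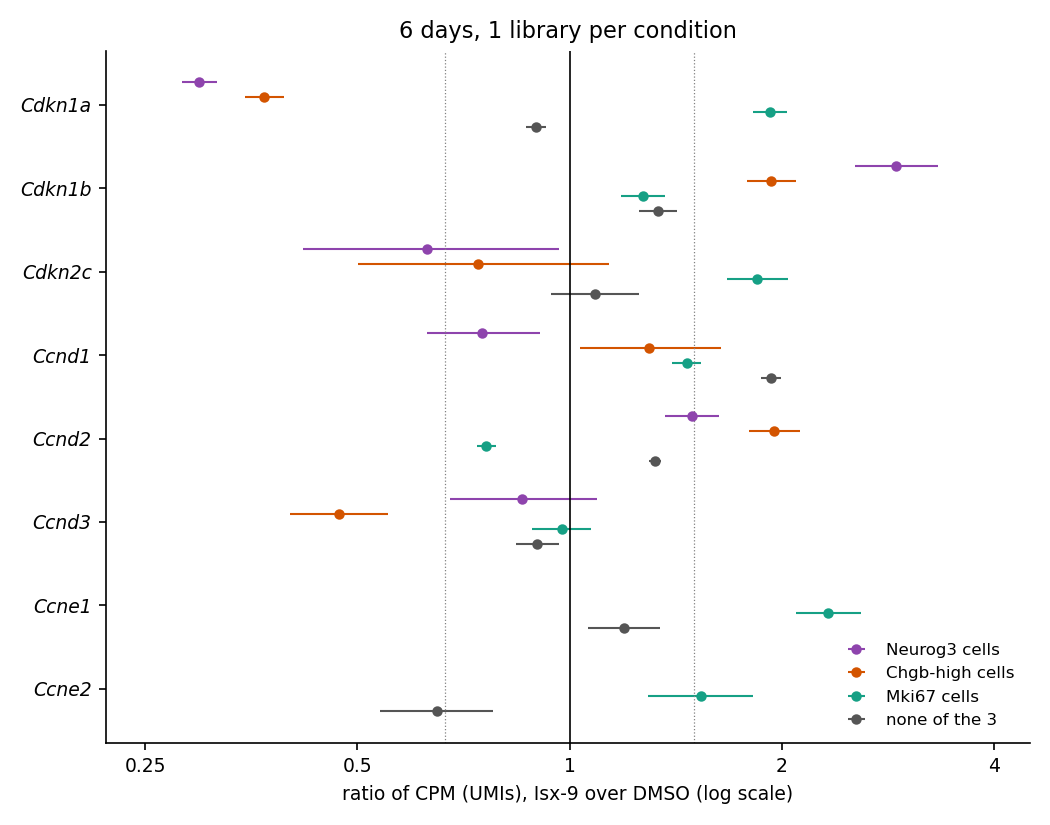
Ratio of CPM, Isx-9 over DMSO after 6 days, for each gene and class on a log axis, with exact 95% counting intervals and dotted lines at 1.5-fold either way. Pairs with fewer than 100 UMIs over both libraries are not drawn; Cdkn1a lies at 0.30 in Neurog3 and 0.37 in Chgb-high cells but at 1.93 in Mki67 cells.

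Of 5 inhibitors outside the 8, 3 were higher and 1 lower past 1.5-fold over all cells at 6 days, where 41.6% of all genes were higher and 9.55% lower. Cdkn2a, which encodes p16 and p19ARF, had 49.2 CPM in Mki67 cells with Isx-9 against 0.17 with DMSO (869 against 10 UMIs; ratio 284; 154 to 595), 0.11 in untreated reporter and 0.17 in wild type. Over all cells it stood at 42.5 against 0.43, and in Neurog3 cells 544 UMIs stood against 0, at least 27.5-fold higher against a floor of 3 counts in the DMSO library and with an exact lower limit of 22.3 by the interval used for the other ratios. It was detected in each class of the Isx-9 library, at 28.4 CPM in Neurog3, 50.4 in Chgb-high and 49.2 in Mki67 cells and 39.2 in cells of none, and free RNA was not separated from the cells' own. Cdkn1c stood at 104 against 10.6 in Mki67 cells (9.80; 8.94 to 10.8) and Cdkn2d at 49.8 against 29.2, so 3 of 5 other inhibitors were past 1.5-fold there, all higher. In the endocrine classes Cdkn1c was near its DMSO level, at 282 against 230.4 in Neurog3 and 232 against 257 in Chgb-high cells. Cdkn3 was lower over all cells (17.3 against 31.7; 0.55) and in Neurog3 cells (4.54 against 18.2; 0.25), and Cdkn2b was lower in cells of none (17.0 against 47.7; 0.36).

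Of 18 p53 targets, 9 were higher and 2 lower past 1.5-fold in Mki67 cells, where 23.4% of all genes were higher and 8% lower, with Eda2r at a ratio of 4.06, Phlda3 at 3.597 and Trp53inp1 at 3.33. In Neurog3 cells 6 of 16 p53 targets with enough UMIs were higher and 2 lower, near the 30.8% and 7.15% of all genes there, with Phlda3 at 3.98, Zmat3 at 3.39 and Plk2 at 2.68, although Plk2 with Isx-9 (14.8 CPM) lay below wild type (16.5). Of 13 pocket protein and E2F genes in Mki67 cells, 1 was higher (E2f7, 1.71) and 2 lower (E2f2, 0.56, and Rb1, 0.61), and the median log2 ratio of that list was 0.07, against 0.09 over all genes of these cells. Of 9 mitogen and Wnt pathway genes with enough UMIs in cells of none, 5 were higher and none lower, where 27.9% of all genes were higher and 10.8% lower, with Axin2 at 2.40, Egr1 at 2.31 and Cd44 at 2.24.

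The genes whose log2 levels most resembled each member were sought over 16 sums (4 libraries by 4 classes) and 10438 genes, which share libraries and depth. Cdkn1a was most like Cd24a (Pearson r = 0.96), Fuca1 (0.94) and Rnase4 (0.93), and Cdkn1b most like 1110034G24Rik, B4galt3 and Ipp (0.99 each). Cdkn2c was most like H2afx (0.97), Gtse1 (0.96) and Pih1d1 (0.96), and Ccne1 most like Dctpp1, Psmc3ip and Tipin (0.98 each). Ccnd1 was most like Cyba (0.98), Pglyrp1 and Rest (0.97 each), Ccnd2 most like Wwc1, Rabggtb and 9130008F23Rik (0.90 each), and Ccnd3 most like Me2 (0.96), Slc26a2 (0.95) and Afp (0.94). Ccne2 fell under the level of 5 CPM set for this search.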

How the data were processed

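For each bulk library the authors deposited raw read counts by gene; per the submitters' processing notes, which give no order, Trim Galore 0.6.4, HISAT2 and HTSeq 0.12.4 were used on GRCm38. The labels name a kit that does not mark strand. The single-cell matrices deposited by the authors are raw UMI counts, and the same notes name Cell Ranger 3.1.0 with Seurat 3.1.5. The authors' deposited table of bulk differential expression (DESeq2 1.24.0) gives log2 fold changes, standard errors and adjusted p-values; its signal column is the authors' mean normalized count and its score column the authors' test statistic.

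The 8 genes, the lists around them and the class gates were chosen with earlier results of these data known. Bulk counts were filtered (filterByExpr), TMM-scaled and tested 2 against 2 with edgeR 4.0.16 (quasi-likelihood F test, 2-sided, Benjamini-Hochberg over all tested genes, threshold 0.05) in R 4.3.3. A cell was kept if it had at least 500 genes, at least 1000 UMIs and no more than 20% of UMIs from mitochondrial genes. Doublets called by Scrublet (scanpy 1.11.5) were then removed. UMIs were summed per library and class, in populations of at least 20 cells, and class sums were tested in the same way across the 4 libraries with library as a block, so that each library is 1 replicate. Isx-9 and DMSO at 6 days, 1 library each, were compared as ratios with exact intervals, without a test; intervals and floors cover counting error only. Gates outside the classes were at least 2 Lgr5 or 3 Dclk1 UMIs, and 20 Muc2, 100 Lyz1 or 50 Fabp1 UMIs per 10000.

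Tested on simulated bulk data with 200 changed genes, recovery was 2.03% for a change of 1.25-fold, 64.6% for 1.5-fold and 86.1% for 2-fold. For Neurog3 against Mki67 cells recovery was 5.38%, 57.2% and 88.8%. Each simulation set a fixed dispersion for all genes and the same change in every library, so recovery may differ where changes vary between libraries. Named genes are the 8 in each comparison, up to 3 passing genes per list with the largest changes, and the 3 genes most like each member. Not every gene so named is printed. Alternatives were other scalings and filters, DESeq2 1.42.0, each library left out, other gates, cells and averaging, and, chosen after seeing the data, removal of the 8% highest doublet scores per library. Of the 2 bulk libraries per group, those with the same number did not deviate together (correlation 0.0137), so the numbers were not taken to pair them.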

Additional observations from a re-analysis of the deposited data

Results flagged for a closer look

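At 6 days 3 of the genes were past 1.5-fold of DMSO on opposite sides in different classes of the same libraries, with 1 library per condition, so the difference between classes was not tested. The share of all genes that lie on opposite sides in this way was not counted. Cdkn1a stood at ratios of 0.298 in Neurog3 cells and 0.369 in Chgb-high cells, and at 1.93 in Mki67 cells. Cdkn2c stood at 0.627 in Neurog3 cells, on 30 UMIs in DMSO, and at 1.85 in Mki67 cells. Its ratio in Neurog3 cells was not past 1.5-fold without cells of more than 1 class. Ccne2 stood at 1.54 in Mki67 cells and at 0.649 in cells of none of the 3 classes. Its ratio in Mki67 cells fell short of 1.5-fold in several alternatives given above.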

How the results depend on the processing

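Of the counts of members, 2 to 3 passed in bulk over all alternatives, 7 in Neurog3 against Mki67 cells, 5 to 7 in Neurog3 and in Chgb-high cells against cells of none and 4 to 7 in Mki67 cells against them. The stage comparison, with 5, gave 3 to 4 with 1 library left out and 3 to 6 over all alternatives. Past 1.5-fold at 6 days, the count of 2 over all cells became 1 against the untreated reporter library, and that of 2 in cells of none became 1 with lower gates, with higher gates and against the untreated reporter library. With the replicate block in bulk 2 members passed, Cdkn1a at 0.53 and Ccnd2 at -0.39, and no call changed. Signs turned for genes that had not passed. In bulk these were Cdkn1b (0.0713), Ccnd1 (0.0764) and Ccnd3 (0.0357) with library size alone, and, with 1 library left out, Cdkn1b (-0.27 to 0.18), Ccnd3 (-0.23 to 0.0486) and Ccne2 (-0.00593 to 0.778). Cdkn2c turned in Neurog3 against cells of none, to 0.24 with library size alone, -0.11 to 0.24 with 1 library left out, 0.10 with doublets kept and 0.38 with lower gates, and in Chgb-high cells to 0.22 with library size alone. Ccnd3 ranged from -2.05e-05 to 0.366 in Chgb-high against none with 1 library left out and turned to 0.0573 in Neurog3 against Mki67 cells with library size alone. Ccnd1 turned in Mki67 against none, -0.12 to 0.0414 with 1 library left out and 0.00757 with lower gates, and Ccnd2 in the stage comparison, to 0.23 with library size alone, -0.19 to 0.0427 with 1 library left out and 0.0379 with higher gates. The Cdkn2c ratio in Neurog3 cells became 1.08 without cells of more than 1 class. The cause of these turns was not tested. Depth limits Ccne1 and Ccne2 in endocrine classes, where both libraries together held under 100 UMIs.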
